A study of Homo sapiens with 12 samples.

Results

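Plasminogen activators cut the inactive plasma protein plasminogen into plasmin, a protease that dissolves fibrin and degrades matrix around cells. The 5 genes described here are PLAU and PLAT, which encode the activators uPA and tPA, PLAUR, which encodes the uPA receptor uPAR, and SERPINE2 and SERPINB2, which encode the inhibitors protease nexin-1 and PAI-2. They were taken by gene symbol, were found in all 12 libraries, and are 5 of the 19907 symbols listed. Secreted pro-uPA binds uPAR on the cell surface and is activated there, and tPA acts mainly on fibrin. Serpins such as protease nexin-1 and PAI-2 trap the activators in covalent complexes that cells then take up. In breast tumours this system is known for its part in invasion, and TGFβ1 is a known regulator of several of its genes. Inhibitors of the activators outside the lists given here were not analysed.

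RNA sequencing was done on MDA-MB-231, an established human triple-negative breast cancer line, to ask how a phosphorylation site of the glucocorticoid receptor (GR) bears on gene expression with and without TGFβ1. The wt-GR line was a clone that kept the normal receptor after the CRISPR procedure, and the S134A-GR line was clone #1, with alanine in place of serine in both copies. Both were starved for 18 h in medium with 1% DCC, a charcoal-stripped serum, and then kept for 6 h with vehicle or with TGFβ1 at 10 ng/mL. The 4 groups were thus wt-GR under vehicle, wt-GR under TGFβ1, S134A-GR under vehicle and S134A-GR under TGFβ1, with 3 libraries each. Each line was 1 clone, so genotype and clone cannot be told apart. The labels do not say whether the libraries of a group came from separate cultures, so p-values measure only the spread between these samples. Values are normalized counts, the authors' read counts divided by a DESeq2 size factor, and recovered totals ranged from 56.4 to 129.8 in units of 1e6 reads with a median of 90.4. The totals were above the average depth that the study states per sample, and whether reads or read pairs were counted is not given in the sources used here, so what a recovered read stands for is not known. A floor of 3 such reads equalled 2.15 to 4.89 normalized counts, and this covers counting error only.

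The labels were checked against known genes. SMAD7, a direct TGFβ target, read 928.7 ± 70.5 normalized counts (SD, n = 3) in the wt-GR line under vehicle and 2121 ± 83.7 under TGFβ1, and 845 ± 24.6 and 2110.5 ± 151 in the S134A-GR line. The treated libraries were above the vehicle libraries in both lines. PMEPA1, another TGFβ target, rose as well (log2 2.90 and 2.18), less so in the S134A-GR line (difference −0.72). NR3C1, the gene of GR itself, was lower in the S134A-GR line (log2 −0.41 under vehicle and −0.31 under TGFβ1), calls kept without each library in turn. It also fell with TGFβ1 in the wt-GR line when vehicle library 3 was removed (−0.21, limma with Benjamini-Hochberg adjusted p = 0.0138), where all libraries gave −0.12 (adjusted p = 0.227). In that line NR3C1 read 12728.8, 12139.2 and 10444.2 normalized counts under vehicle and 10485.9 to 11326.4 under TGFβ1. Vehicle library 3 was thus below the TGFβ1 libraries and library 1 furthest above, so the value for NR3C1 depended on the library removed. Its part in the differences between the lines was not tested. VIM and CD44, markers of a mesenchymal-like line, had group means of 422927 to 520872 and 41884 to 60879 normalized counts and rose with TGFβ1 in both lines (log2 0.25 and 0.28, 0.47 and 0.46). ESR1 ranged from 0 to 7.32 over the 12 libraries and CDH1 from 1.05 to 12.5. Near the floor, ESR1 was called higher with TGFβ1 in the wt-GR line (log2 2.23, limma with Benjamini-Hochberg adjusted p = 0.0389), a call lost without 6 libraries and by edgeR (adjusted p = 0.101). It was called higher in the S134A-GR line under vehicle when S134A-GR vehicle library 3 was removed (1.99, adjusted p = 0.0193). ERBB2 ranged from 7229 to 10589, fell with TGFβ1 (log2 −0.20 in both lines) and was higher in the S134A-GR line (0.24 under each treatment). EPCAM was lower in the S134A-GR line (log2 −1.44 under vehicle and −1.58 under TGFβ1), with 1024 ± 64.6 and 1018 ± 90.5 in the wt-GR line under vehicle and TGFβ1 against 378 ± 51.7 and 339 ± 26.9 in the S134A-GR line. Of the markers of other cell types, the leukocyte gene PTPRC ranged from 0 to 9.80 and the endothelial gene PECAM1 from 746 to 1454. PECAM1 fell with TGFβ1 in both lines (log2 −0.37 and −0.45) and was lower in the S134A-GR line under vehicle (−0.25) and under TGFβ1 (−0.34). Its vehicle call was lost without wt-GR vehicle library 2 (−0.20) or S134A-GR vehicle library 1 (−0.21). The part of these markers in the results was not tested. PGR, a further marker, was not analysed here.

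Some vehicle libraries of the wt-GR line stood apart by transcript length. The 1090 genes with canonical transcripts of at least 8000 bases were compared with the 2966 genes of at most 2000 bases, by the median log2 deviation from the group mean. Long minus short was 0.19 in wt-GR vehicle library 1 and −0.21 in library 3, and it was between −0.09 and 0.09 in the other 10 libraries. The canonical transcripts of the 5 genes have 1368 to 3062 bases. The responses of the wt-GR line, the line differences under vehicle and the differences of responses rest on these libraries, and each is also given without library 1 and without library 3 for the 5 genes.

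Genes were compared by limma after adding 1 to the normalized counts and taking log2, and a gene is said to rise, fall or differ where the Benjamini-Hochberg FDR over the 18579 genes tested was under 0.05. All 5 genes passed the filter of 10 reads over the 12 libraries. With TGFβ1 in the wt-GR line, PLAU, PLAUR and SERPINE2 rose, 3 of 5 genes, where 11.2% of all genes tested rose. None of the 5 fell by this test, where 9.82% of all genes fell, and PLAT, with the nearest value, had an adjusted p of 0.0515. In the S134A-GR line PLAU and PLAUR rose, 2 of 5, against 10.0% of all genes, and PLAT fell, 1 of 5, against 8.69%. Under vehicle PLAU, SERPINE2 and SERPINB2 were higher in S134A-GR than in the wt-GR line, 3 of 5 against 25.0% of all genes. PLAUR and PLAT were lower, 2 of 5 against 26.5%. Under TGFβ1 SERPINB2 alone of the 5 was higher in the S134A-GR line, 1 of 5 against 23.1%, and PLAU, PLAUR and PLAT were lower, 3 of 5 against 25.7%. The difference of the responses, S134A-GR minus wt-GR, was called above 0 for 0.167% of all genes and for none of the 5, and below 0 for 0.248% of all genes and for PLAU. The shares of higher and lower genes between the lines were large for all genes, so the counts there say little about the 5 genes in particular. The 5 genes were chosen with earlier results of these data known, so all these shares are descriptions and not a test.

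Measured by medians, the log2 fold change of the 5 genes with TGFβ1 was 0.22 in the wt-GR line, where the median of all genes was −0.00, and 0.07 in the S134A-GR line, where it was −0.01. Between the lines the median of the 5 was 0.27 under vehicle and −0.18 under TGFβ1, against 0.02 and 0.01 for all genes. For the difference of the responses it was −0.14 against −0.00. The plot of fold changes shows each gene's value behind these medians.

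**Figure D1:**
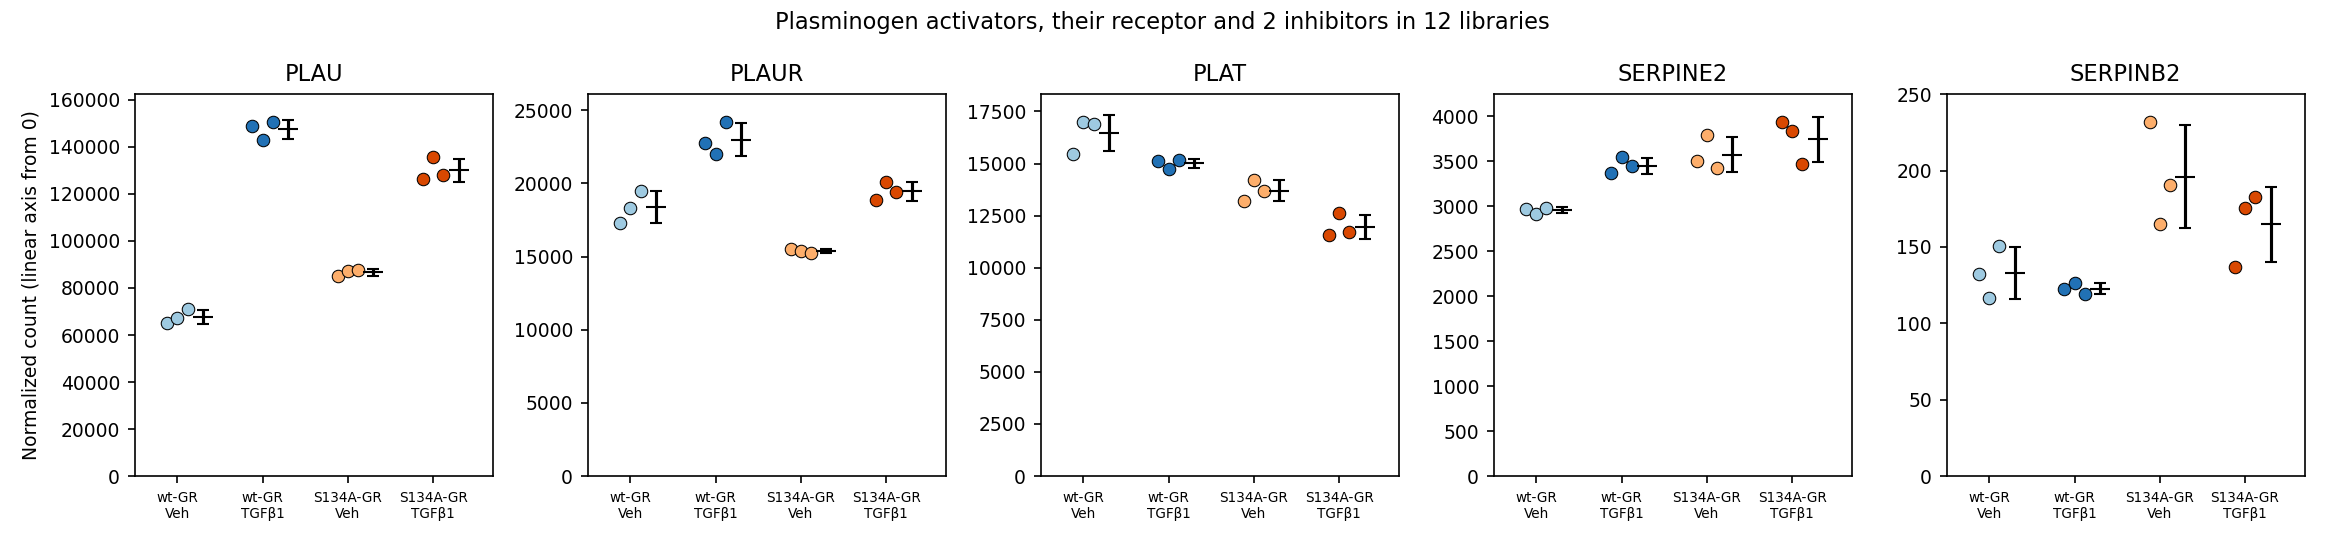
Normalized counts of PLAU, PLAUR, PLAT, SERPINE2 and SERPINB2 (vertical axes, linear from 0, a scale for each gene) in the 12 libraries, as points by group, with the mean and SD of 3 libraries beside them. PLAU was lowest in the wt-GR line under vehicle (67744 ± 2921) and highest in the wt-GR line under TGFβ1 (147534 ± 4055).

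**Figure D2:**
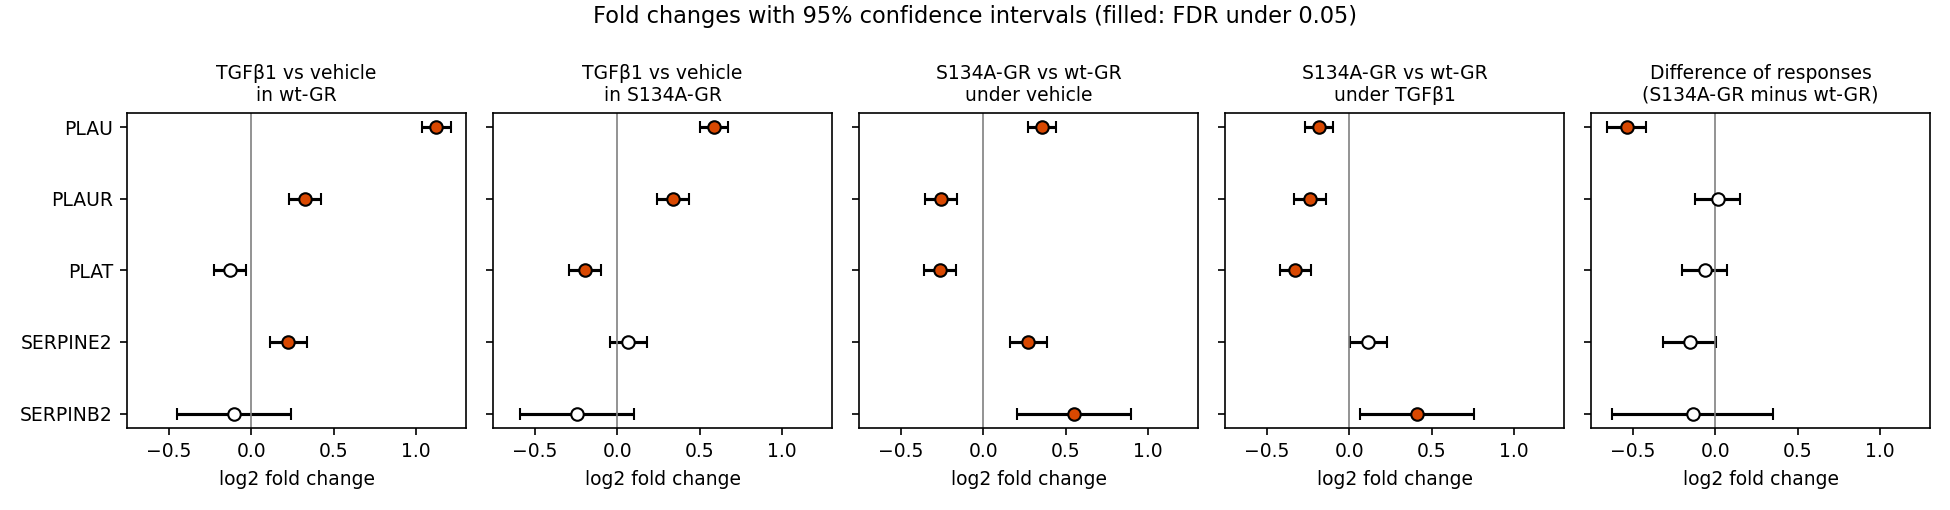
Log2 fold changes (horizontal axis) of the 5 genes (vertical axis) in the 5 comparisons, with 95% confidence intervals from limma; filled points have an FDR under 0.05. PLAU lies at 1.12 with TGFβ1 in the wt-GR line and at 0.58 in the S134A-GR line, and it is the gene of the 5 whose difference of responses is filled (−0.54).

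Promoters are shown because PLAU and PLAUR rose together with TGFβ1 in both lines and SERPINE2 rose in the wt-GR line, while SERPINB2 differed between the lines. From RefSeq (GRCh38.p14), 6 promoters for 4 of the 5 genes were taken, as the 250 bases before the start. PLAT was left out of this step, so its promoter was not searched. They were searched on both strands for AP-1 as TGANTCA, the cAMP response element CRE as TGACGTCA, the SMAD CAGA box as CAGACA, the SMAD palindrome as GTCTAGAC and the glucocorticoid response element core as ACANNNTGT. Capitals mark a match. Of 35116 promoters of this length, 6.57% held AP-1, 1.65% CRE, 13.6% the CAGA box, 0.182% the palindrome and 4.61% the GRE core. PLAU is on the plus strand, at chr10:73910882-73911131, and held none of these letters.
PLAU: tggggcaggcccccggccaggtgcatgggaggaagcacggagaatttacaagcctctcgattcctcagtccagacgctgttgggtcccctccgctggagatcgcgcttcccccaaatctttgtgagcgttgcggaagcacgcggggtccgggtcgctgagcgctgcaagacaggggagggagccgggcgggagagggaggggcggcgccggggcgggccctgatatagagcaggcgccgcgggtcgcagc
PLAUR is on the minus strand, at chr19:43670170-43670419, and held AP-1 as TGAGTCA from 186 to 180 bases before the start.
PLAUR: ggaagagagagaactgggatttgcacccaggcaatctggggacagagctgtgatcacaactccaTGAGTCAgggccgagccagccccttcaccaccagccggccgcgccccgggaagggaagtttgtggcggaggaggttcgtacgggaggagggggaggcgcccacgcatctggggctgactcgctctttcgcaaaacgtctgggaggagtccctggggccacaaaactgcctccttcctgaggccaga
The second SERPINE2 start has its promoter on the minus strand, at chr2:224031479-224031728, with the GRE core as ACATGCTGT from 232 to 224 bases before the start. This second start lies 7808 bases from the start of the canonical SERPINE2 transcript.
SERPINE2: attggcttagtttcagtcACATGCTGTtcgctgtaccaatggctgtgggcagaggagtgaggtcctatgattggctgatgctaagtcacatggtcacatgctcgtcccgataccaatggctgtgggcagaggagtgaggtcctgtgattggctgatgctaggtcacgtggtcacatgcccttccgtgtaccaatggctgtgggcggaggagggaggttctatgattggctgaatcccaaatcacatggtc
SERPINB2 is on the plus strand, at chr18:63887455-63887704, and held AP-1 as TGAATCA from 102 to 96 bases and the CAGA box, on the other strand as TGTCTG, from 10 to 5 bases before the start.
SERPINB2: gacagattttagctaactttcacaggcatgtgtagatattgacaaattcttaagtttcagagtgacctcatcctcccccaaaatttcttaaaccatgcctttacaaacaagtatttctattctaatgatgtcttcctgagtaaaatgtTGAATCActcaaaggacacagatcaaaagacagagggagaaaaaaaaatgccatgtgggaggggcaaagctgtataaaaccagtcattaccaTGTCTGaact
The promoter of the other PLAU start, chr10:73910360-73910609, and that of the other SERPINE2 start, chr2:224038641-224038890, held none of the motifs. That other SERPINE2 start is the nearer to the start of the canonical transcript, at 646 bases. A match is a run of letters and not evidence of binding.

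PLAU, on chromosome 10 of hg38 from 73909177 to 73917496 on the plus strand, has 11 exons in its canonical transcript and encodes uPA, the main activator at the cell surface. In the wt-GR line its normalized counts were 65076, 67289.7 and 70865 under vehicle (67744 ± 2921, SD, n = 3) and 148975, 142955 and 150671 under TGFβ1 (147534 ± 4055). The S134A-GR line had 85103, 87259 and 87604 under vehicle (86655 ± 1355.5) and 126401, 135565 and 128007 under TGFβ1 (129991 ± 4894). No 2 groups overlapped, so the 12 libraries fell in the order wt-GR vehicle, S134A-GR vehicle, S134A-GR TGFβ1 and wt-GR TGFβ1, and each neighbouring pair in that order passed the test. TGFβ1 raised PLAU 2.18-fold in the wt-GR line, a log2 fold change of 1.12 (95% confidence interval 1.04 to 1.21, limma with Benjamini-Hochberg adjusted p = 1.08e-10). The ratio in the S134A-GR line was 1.5, a log2 fold change of 0.58 (0.50 to 0.67, adjusted p = 1.24e-07). Bulk RNA cannot tell fewer cells with a transcript from less of it per cell.

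The line with the lower PLAU under vehicle was thus the line with the higher PLAU under TGFβ1. S134A-GR against wt-GR was 1.28-fold under vehicle (log2 0.36, confidence interval 0.27 to 0.44, limma with Benjamini-Hochberg adjusted p = 3.92e-06) and 0.881-fold under TGFβ1 (log2 −0.18, −0.27 to −0.10, adjusted p = 0.00151). The difference of the responses, S134A-GR minus wt-GR, was −0.54 (SE 0.0561, confidence interval −0.66 to −0.42, adjusted p = 0.000909 by limma with Benjamini-Hochberg), which ranked 3 of the 18579 genes by p. Without wt-GR vehicle library 1 it was −0.51 (adjusted p = 0.00111) and without library 3 −0.57 (adjusted p = 0.000412). The wt-GR response of PLAU was then 1.09 and 1.16, and its line difference under vehicle 0.33 and 0.39. This comparison called 77 genes, 22 without wt-GR TGFβ1 library 1 and 166 without wt-GR vehicle library 3. Of the 77, 24 rose with TGFβ1 in both lines, and PLAU was among the 19 of these whose response was smaller in the S134A-GR line.

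**Figure D3:**
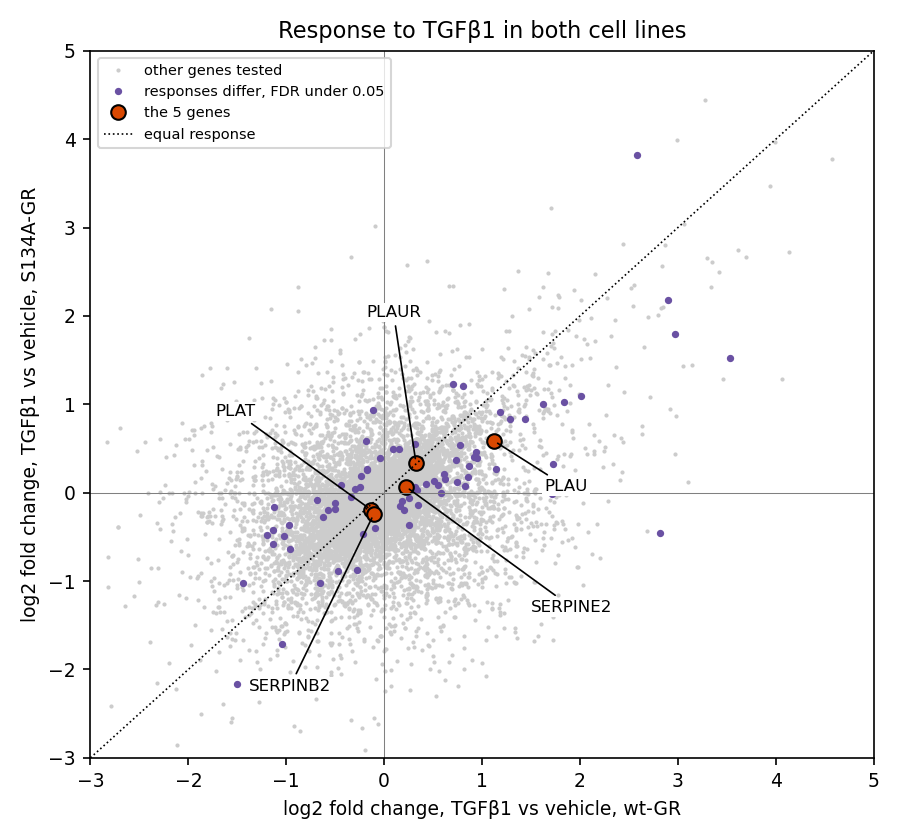
Log2 fold change with TGFβ1 in the wt-GR line (horizontal axis) and in the S134A-GR line (vertical axis), a point for each gene tested, with the 77 genes whose responses differed in purple, the 5 genes in orange and a dotted line of equal response; 16 genes lie outside the axes, which run from −3 to 5. PLAU lies below the line, at 1.12 and 0.58, and PLAUR close to it, at 0.32 and 0.34.

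On the strand opposite PLAU lies C10orf55, a long noncoding RNA gene that shares 915 exon bases, 31.0% of the exon bases of PLAU. Its mean normalized count was 261 ± 64.0 in the wt-GR line under vehicle and 495 ± 31.8 under TGFβ1, and 526 ± 28.5 and 682 ± 60.4 in the S134A-GR line (SD, n = 3). These were 0.385%, 0.336%, 0.607% and 0.525% of the PLAU counts. The strand setting of the counting is not stated, and how reads in the shared bases were assigned was not tested.

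PLAT, on chromosome 8 from 42174718 to 42207709 on the minus strand, has 14 exons and encodes tPA, the activator that binds fibrin. It read 15469.5, 17003 and 16919.9 normalized counts in the wt-GR line under vehicle (16464 ± 862, SD, n = 3) and 15118.5, 14756 and 15156 under TGFβ1 (15010.2 ± 221). Its S134A-GR libraries read 13207, 14212 and 13687 under vehicle (13702 ± 503) and 11594.5, 12629.5 and 11695 under TGFβ1 (11973 ± 571). The groups did not overlap in any of the 4 pairwise comparisons, and the levels ran from wt-GR vehicle down through wt-GR TGFβ1 and S134A-GR vehicle to S134A-GR TGFβ1. With TGFβ1 PLAT fell in the S134A-GR line (ratio 0.874, log2 −0.20, limma with Benjamini-Hochberg adjusted p = 0.0072). In the wt-GR line the ratio was 0.912 and the log2 fold change −0.13 (confidence interval −0.23 to −0.04), which missed the threshold (adjusted p = 0.0515).

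Without wt-GR vehicle library 3 the wt-GR value of PLAT was −0.11 (adjusted p = 0.121). It passed without wt-GR vehicle library 1 (−0.18, adjusted p = 0.0115) and without S134A-GR TGFβ1 library 1 or 2 (−0.13, adjusted p = 0.0480 and 0.0392). The responses of the lines did not differ by the test (−0.06, confidence interval −0.20 to 0.07, limma with Benjamini-Hochberg adjusted p = 0.793). PLAT was lower in S134A-GR than in the wt-GR line under vehicle (ratio 0.832, log2 −0.26, adjusted p = 0.000193) and under TGFβ1 (ratio 0.798, log2 −0.33, adjusted p = 3.16e-05, limma with Benjamini-Hochberg). Removal of wt-GR vehicle library 1 made the line difference under vehicle −0.31 and the difference of responses −0.02, and removal of library 3 made them −0.24 and −0.08. The difference of responses was −0.04 without S134A-GR vehicle library 2 or TGFβ1 library 1 and −0.10 without S134A-GR TGFβ1 library 2.

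PLAUR, on chromosome 19 from 43646095 to 43670547 on the minus strand, has 7 exons and encodes uPAR, the receptor that holds uPA at the membrane. In the wt-GR line it read 17319, 18311 and 19473 normalized counts under vehicle (18368 ± 1078, SD, n = 3) and 22768, 22008 and 24202.5 under TGFβ1 (22993 ± 1115). In the S134A-GR line it read 15529.6, 15357 and 15231 under vehicle (15372.5 ± 149.7) and 18831, 20102.5 and 19439 under TGFβ1 (19458 ± 636). Treated libraries were above vehicle libraries of their line without overlap, and S134A-GR libraries were below wt-GR libraries of the same treatment. The libraries of the S134A-GR line under TGFβ1 overlapped those of the wt-GR line under vehicle.

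The receptor gene rose by similar amounts in both lines, 1.25-fold in the wt-GR line (log2 0.32, confidence interval 0.23 to 0.42, limma with Benjamini-Hochberg adjusted p = 0.00013) and 1.27-fold in the S134A-GR line (log2 0.34, 0.24 to 0.44, adjusted p = 9.9e-05). Without wt-GR vehicle library 1 the PLAUR response in the wt-GR line was 0.28, and without library 3 it was 0.37. The difference of the responses was 0.01 (confidence interval −0.12 to 0.15, adjusted p = 0.957, limma with Benjamini-Hochberg). Its sign turned, to −0.03, without wt-GR vehicle library 3 (0.06 without library 1), to −0.02 without wt-GR TGFβ1 library 2 and to −0.01 without S134A-GR TGFβ1 library 2. PLAUR in the S134A-GR line was 0.837 of its wt-GR level under vehicle (log2 −0.26, adjusted p = 0.000282) and 0.846 under TGFβ1 (log2 −0.24, adjusted p = 0.000515 by limma with Benjamini-Hochberg). The vehicle value was −0.30 without wt-GR vehicle library 1 and −0.21 without library 3.

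SERPINE2, on chromosome 2 from 223975045 to 224039318 on the minus strand, has 9 exons and encodes protease nexin-1, which inhibits thrombin, uPA and tPA. In the wt-GR line it read 2975, 2917 and 2982 normalized counts under vehicle (2958 ± 35.8, SD, n = 3) and 3366, 3545 and 3445 under TGFβ1 (3452 ± 89.7). S134A-GR libraries read 3504, 3797 and 3421 under vehicle (3574 ± 198) and 3939, 3835 and 3465 under TGFβ1 (3747 ± 249). The 3 libraries of the wt-GR line under vehicle were the lowest of the 12, and the other 3 groups overlapped each other.

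SERPINE2 rose 1.17-fold with TGFβ1 in the wt-GR line (log2 0.22, confidence interval 0.11 to 0.34, limma with Benjamini-Hochberg adjusted p = 0.00747). In the S134A-GR line the ratio was 1.05 (log2 0.07, −0.05 to 0.18, adjusted p = 0.442). The difference of the responses was −0.16 (confidence interval −0.31 to 0.00) and did not pass the test (adjusted p = 0.548, limma with Benjamini-Hochberg), so a different response of the lines was not shown. SERPINE2 was 1.21-fold higher in the S134A-GR line under vehicle (log2 0.27, adjusted p = 0.000561). Under TGFβ1 the ratio was 1.09 (log2 0.12, adjusted p = 0.0835 by limma with Benjamini-Hochberg), and without S134A-GR TGFβ1 library 3 it passed (0.17, adjusted p = 0.0134). When wt-GR vehicle library 1 or library 3 was removed, the wt-GR response of SERPINE2 was 0.23, its line difference under vehicle 0.28 and the difference of responses −0.16. Its S134A-GR response did not pass without any single library but moved, to 0.11 and 0.04 without S134A-GR vehicle libraries 2 and 3 and to 0.03 and 0.12 without S134A-GR TGFβ1 libraries 1 and 3. The last removal made the difference of responses −0.10.

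SERPINB2, on chromosome 18 from 63871692 to 63903888 on the plus strand, has 8 exons and encodes PAI-2, an inhibitor of uPA and tPA that is found largely inside cells. It shares 547 exon bases, 20.0% of its exon bases, with a gene on the same strand that has no symbol in the annotation and was not analysed here. Its normalized counts in the wt-GR line were 132.0, 116 and 151 under vehicle (133 ± 17.2, SD, n = 3) and 122, 127 and 119 under TGFβ1 (123 ± 3.79). Counts in the S134A-GR line were 232, 165 and 191 under vehicle (196 ± 33.6) and 137, 175 and 182 under TGFβ1 (165 ± 24.4). Libraries of the same line overlapped between treatments, and S134A-GR libraries were above wt-GR libraries of the same treatment.

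With TGFβ1 the ratio of SERPINB2 was 0.923 in the wt-GR line (log2 −0.11, limma with Benjamini-Hochberg adjusted p = 0.709) and 0.841 in the S134A-GR line (log2 −0.25, adjusted p = 0.346). The difference of the responses was −0.14 with a confidence interval of −0.63 to 0.35, wider than for the other 4 genes. SERPINB2 was higher in the S134A-GR line under vehicle, 1.47-fold (log2 0.55, confidence interval 0.20 to 0.90, adjusted p = 0.0106 by limma with Benjamini-Hochberg), and under TGFβ1, 1.34-fold (log2 0.41, 0.07 to 0.76, adjusted p = 0.0476). Both calls were weak. The vehicle call was lost without S134A-GR vehicle library 1 (0.42, adjusted p = 0.0615), and it was 0.55 without wt-GR vehicle library 1 and 0.64 without library 3. The wt-GR response was then −0.11 and −0.01, and the difference of responses −0.14 and −0.23. Removal of wt-GR vehicle library 2 made them −0.20 and −0.05. The S134A-GR response was −0.12 and the difference of responses −0.01 without S134A-GR vehicle library 1 or TGFβ1 library 1, and −0.36 and −0.25 without S134A-GR vehicle library 2. Without S134A-GR TGFβ1 library 3 they were −0.32 and −0.22. None of these responses or differences passed. The TGFβ1 call was lost without wt-GR vehicle library 1 (adjusted p = 0.0518), wt-GR TGFβ1 libraries 1, 2 and 3 (0.0941, 0.0784 and 0.109), S134A-GR vehicle library 3 (0.0609) and S134A-GR TGFβ1 libraries 2 and 3 (0.135 and 0.159, limma with Benjamini-Hochberg).

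Levels of different genes were compared as normalized counts per kb of exon sequence, which was known for 17524 genes, 88.0% of those listed. All annotated exons of a gene were merged for this length. It was 2949 bases for PLAU, 4457 for PLAUR, 7770 for PLAT, 8957 for SERPINE2 and 2741 for SERPINB2. The canonical transcripts have 2343, 1368, 3062, 2226 and 1906 bases in that order. The gaps between genes thus depend on the length used, and levels by canonical length were not computed. Per kb of merged exons PLAU was the most abundant of the 5 in all groups, at 22972 ± 990.4 per kb in the wt-GR line under vehicle (rank 98 of 17524) and 50028 ± 1375 under TGFβ1 (rank 38). In the S134A-GR line its level per kb was 29385 ± 459.6 (rank 68) and 44079.6 ± 1659 (rank 41). PLAUR was next, with levels per kb of 4121 and 5159 in the wt-GR line and 3449 and 4366 in the S134A-GR line under vehicle and TGFβ1. PLAT followed at 2119, 1932, 1763 and 1541 per kb in the same order of groups. The inhibitors were the least abundant of the 5 on this scale, SERPINE2 at 330.3 to 418 per kb and SERPINB2 at 44.8 to 71.5.

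Of 51 further genes in lists around plasminogen activation, 45 had values and 43 were tested. With TGFβ1, 11 rose (25.6%, against 11.2% of all genes tested) and 6 fell (14.0% against 9.82%) in the wt-GR line. The S134A-GR line had 8 that rose (18.6% against 10.0%) and 3 that fell (6.98% against 8.69%). Between the lines, 11 were higher in the S134A-GR line under vehicle (25.6% against 25.0%) and 16 lower (37.2% against 26.5%). Under TGFβ1, 8 were higher (18.6% against 23.1%) and 12 lower (27.9% against 25.7%). Several of these shares lie near the share of all genes, and the same shares of all genes apply to the counts of each list. The lists too were chosen with earlier results of these data known, so their shares are descriptions. With wt-GR vehicle library 1 removed the wt-GR response gave 8 that rose (18.6% against 9.14% of all genes) and 3 that fell (6.98% against 7.78%). Without library 3 it gave 15 (34.9% against 12.7%) and 6 (14.0% against 10.9%). The test of the difference of responses called 0 of the 43 by limma, with an unadjusted p under 0.05 for 6, 14.0% against 9.30% of all genes. On the same difference edgeR called 0 of 43, with 5 or 4 at an unadjusted p under 0.05 after TMM or RLE scaling (11.6% and 9.30% against 9.11% and 9.06%). By limma-voom 0 of 43 were called, with 8 at an unadjusted p under 0.05 (18.6% against 8.70%). The DESeq2 Wald test had 3 such genes (6.98% against 8.56%). DESeq2 called 1 of the 30 it gave an adjusted p, MRC2, where it called 211 of 13877 genes, 1.52%. The plot of listed genes shows 30 of them. Calls were repeated without each library in turn. Of the 17 and 11 calls with TGFβ1 in the wt-GR and S134A-GR lines, 6 and 2 were lost without at least 1 library, and of the 27 and 20 calls between the lines under vehicle and TGFβ1, 5 and 2 were lost.

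**Figure D4:**
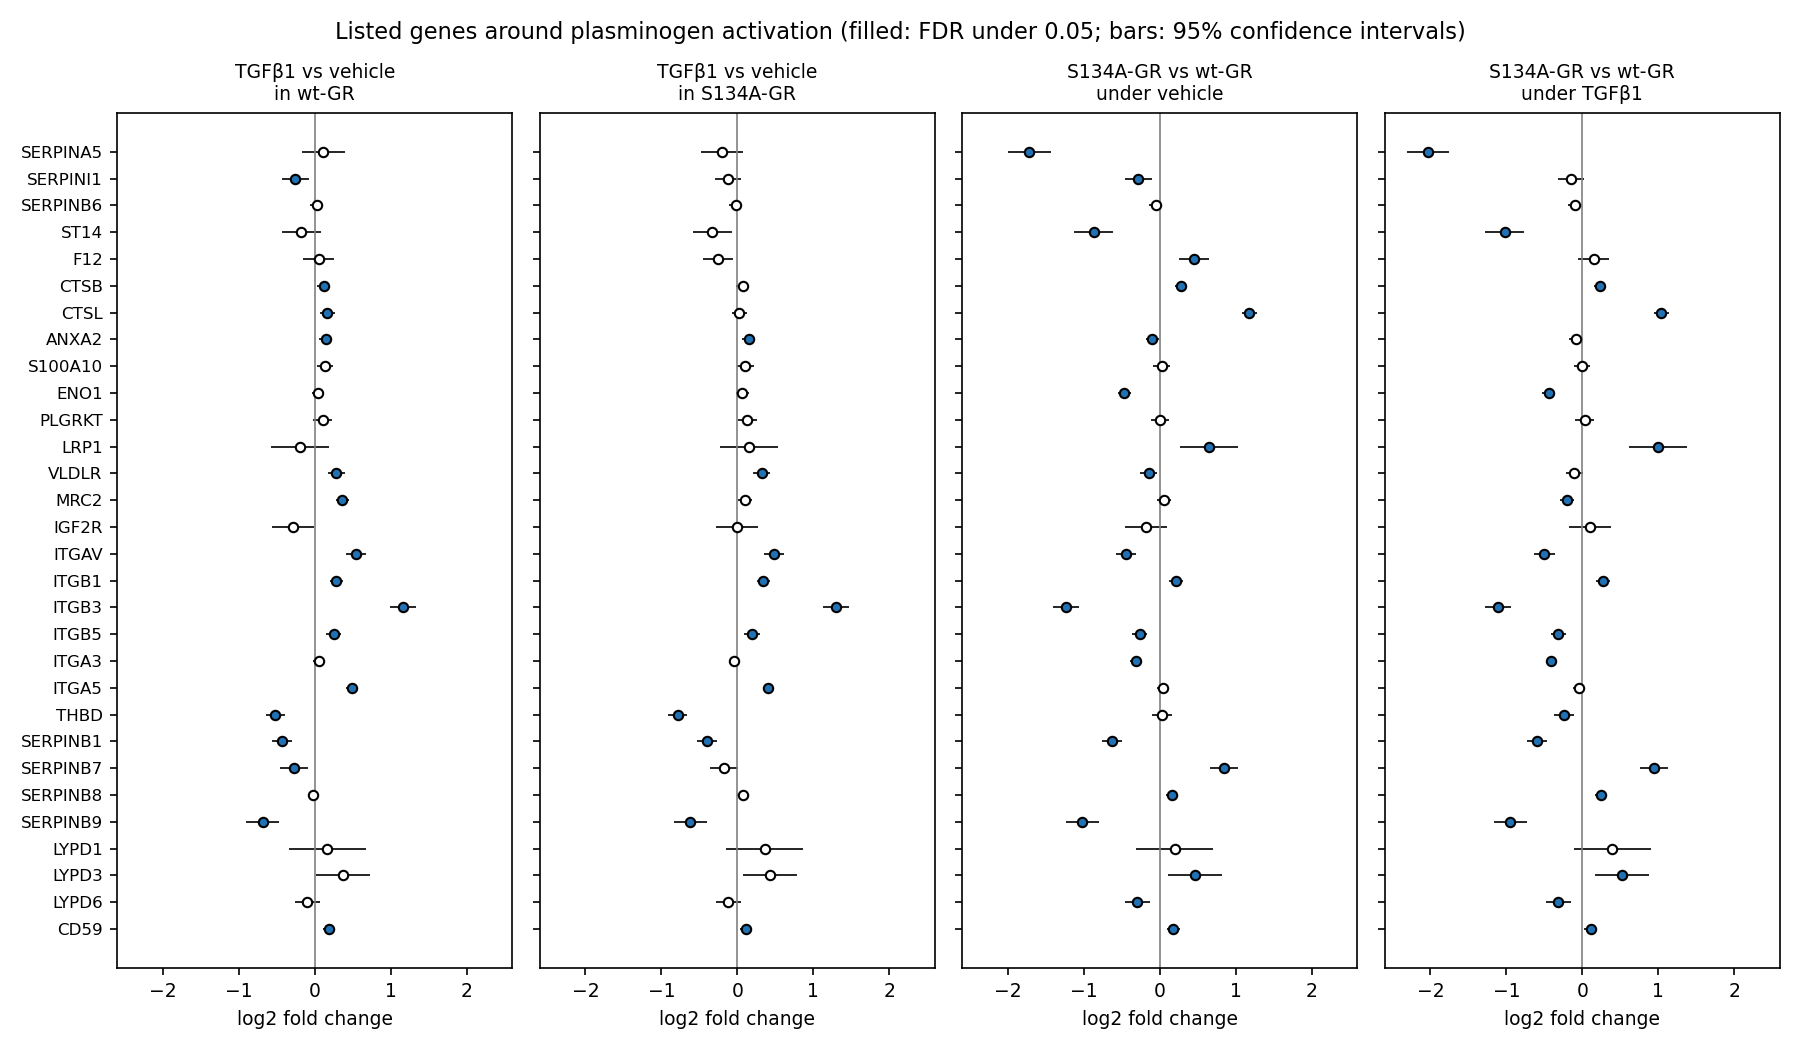
Log2 fold changes (horizontal axes) with 95% confidence intervals from limma for the 30 listed genes whose highest group mean was at least 50 normalized counts (vertical axis), in 4 comparisons; filled points have an FDR under 0.05. ITGB3 lies at 1.16 and 1.29 with TGFβ1, and SERPINA5 at −1.72 and −2.03 between the lines.

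The list of uPAR cofactors and uptake receptors had 12 genes, of which 7 rose with TGFβ1 in the wt-GR line and 6 in the S134A-GR line, with none that fell (median log2 fold change 0.28 and 0.33), where 11.2% and 10.0% of all genes tested rose. Without wt-GR vehicle library 3, 7 rose and 2 fell in the wt-GR line, namely LRP1 and IGF2R, the latter named after its values were seen, where 12.7% of all genes rose and 10.9% fell. Without library 1, 7 rose and none fell, where 9.14% of all genes rose and 7.78% fell. IGF2R, an uptake receptor that binds uPAR, had a wt-GR response of −0.29 (limma with Benjamini-Hochberg adjusted p = 0.139) with all libraries and −0.48 (adjusted p = 0.00123) without library 3. Between the lines under vehicle it was −0.18 (adjusted p = 0.271) and −0.37 (adjusted p = 0.00284) in the same order, by limma with Benjamini-Hochberg. IGF2R read 32783.4, 25270.8 and 19386.9 in wt-GR vehicle libraries 1, 2 and 3. It read 20574.8 to 20812.5 in the wt-GR line under TGFβ1 and 21129.7 to 24149 in the S134A-GR line under vehicle. Library 3 was below both ranges and libraries 1 and 2 above, so both values depended on which library was removed. ITGB3, the β3 integrin subunit that pairs with αv to bind vitronectin, went from 1008 ± 65.7 normalized counts to 2254 ± 86.3 in the wt-GR line (log2 1.16) and from 426 ± 19.1 to 1050.3 ± 113 in the S134A-GR line (log2 1.29). Its partner ITGAV rose by 0.54 and 0.48 on the log2 scale and ITGA5, a fibronectin receptor subunit, by 0.49 and 0.41. ITGB1 rose by 0.28 and 0.34. MRC2, a collagen receptor that associates with uPAR, rose in the wt-GR line (0.36), and in the S134A-GR line its value was 0.10 (limma with Benjamini-Hochberg adjusted p = 0.103). The difference of its responses was −0.26 (adjusted p = 0.103), which passed by DESeq2's Wald test (Benjamini-Hochberg adjusted p = 0.0102) and by limma without wt-GR TGFβ1 library 2 (−0.30, adjusted p = 0.0484).

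Between the lines, 2 of these 12 genes were higher and 5 lower in the S134A-GR line under vehicle, and the counts were the same under TGFβ1 (median log2 −0.16 and −0.08). The lower genes were not all the same. MRC2 was called lower under TGFβ1 only (−0.21), and another gene of the list under vehicle only (−0.14), a call lost without 4 libraries. ITGB3 was lower in the S134A-GR line (log2 −1.24 under vehicle and −1.11 under TGFβ1), and so were ITGAV (−0.44 and −0.50) and the α3 integrin subunit ITGA3 (−0.32 and −0.41). LRP1, an uptake receptor for inhibited uPA, read 20191.5, 13111.5 and 9967 normalized counts in the wt-GR line under vehicle and had group means of 12125 ± 609 under TGFβ1 and 21817 ± 2574 and 24264 ± 2647 in the S134A-GR line. Its highest wt-GR vehicle library was library 1, which overlapped the S134A-GR libraries. LRP1 was higher in the S134A-GR line under vehicle (log2 0.65, limma with Benjamini-Hochberg adjusted p = 0.00693) and under TGFβ1 (1.00, adjusted p = 0.000328). Without wt-GR vehicle library 3 the vehicle value was 0.42 (limma with Benjamini-Hochberg adjusted p = 0.0244). LRP1 then fell with TGFβ1 in the wt-GR line (−0.43, adjusted p = 0.0436), where all libraries gave −0.19 (adjusted p = 0.523, limma with Benjamini-Hochberg). Its wt-GR TGFβ1 libraries read 11478.7 to 12687.9, below vehicle libraries 1 and 2 and above library 3. With library 1 removed, the vehicle libraries thus lay on both sides of the TGFβ1 libraries, and the fall rested on library 1. VTN, the gene of vitronectin, ranged from 0 to 21.2 normalized counts and was called in no comparison.

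The list of further proteases that activate pro-uPA or plasminogen had 7 genes. With TGFβ1, 2 rose in the wt-GR line and none in the S134A-GR line, and none fell in either (median log2 0.12 and −0.32). The rises, of the lysosomal proteases CTSL (0.17, limma with Benjamini-Hochberg adjusted p = 0.0161) and CTSB (0.12, adjusted p = 0.0433), were lost without 3 and 7 of the 12 libraries in turn. Another gene of the list did not pass in the S134A-GR line by limma with all libraries (−0.25, Benjamini-Hochberg adjusted p = 0.0771). It fell by DESeq2 (0.0310) and limma-voom (0.0478), and by limma without wt-GR vehicle library 1 (adjusted p = 0.0234). HPN in the wt-GR line did not pass by limma (−1.66, Benjamini-Hochberg adjusted p = 0.0832), and it fell by limma-voom (0.0493) and by limma without wt-GR TGFβ1 library 3 (−2.19, adjusted p = 0.0366). Between the lines 4 were higher and 2 lower in the S134A-GR line under vehicle, and 2 were higher and 1 lower under TGFβ1 (median log2 0.45 and 0.15). CTSL had 9275 ± 411 and 10409 ± 505 normalized counts in the wt-GR line under vehicle and TGFβ1 and 21005 ± 264 and 21407 ± 964 in the S134A-GR line, log2 differences of 1.18 and 1.04. The membrane protease ST14 went the other way, at 304 ± 11.7 and 269.98 ± 31.8 against 167 ± 14.8 and 132 ± 7.11, log2 −0.87 and −1.02. KLKB1 (higher) and HPN (lower), also called under vehicle, stayed near the floor, at group means of 1.09 to 9.22 and 0 to 3.74, and the HPN call was lost without 4 libraries, by edgeR (Benjamini-Hochberg adjusted p = 0.0836 and 0.0835 after TMM and RLE scaling) and by DESeq2 (0.170).

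Plasminogen binding at the cell surface was listed with 4 genes. ANXA2, which holds plasminogen and tPA at the membrane, rose in wt-GR (0.14) and the S134A-GR line (0.15), the single call of the list with TGFβ1 in each line (median 0.12 and 0.12). Those calls were lost without 4 and 3 of the 12 libraries. S100A10, named after its values were seen, rose too in the wt-GR line when vehicle library 3 was removed (0.19, limma with Benjamini-Hochberg adjusted p = 0.00511), where all libraries gave 0.13 (adjusted p = 0.0816). Its wt-GR libraries read 57325.4, 61541.4 and 67148.8 normalized counts under vehicle and 67353.4 to 68368.7 under TGFβ1. Library 1 was furthest below the TGFβ1 libraries and library 3 nearest to them, so the size of the rise depended on the library removed. Between the lines ENO1, a glycolytic enzyme also found as a plasminogen receptor, was lower in the S134A-GR line (log2 −0.47 under vehicle and −0.44 under TGFβ1). ANXA2 was lower under vehicle (−0.10, limma with Benjamini-Hochberg adjusted p = 0.0476), a call lost without 10 libraries, so that 2 genes were lower under vehicle and 1 under TGFβ1 and none was higher (median −0.05 and −0.04). Under TGFβ1 ANXA2 did not pass by limma with all libraries (−0.09, Benjamini-Hochberg adjusted p = 0.0697) and passed without wt-GR vehicle library 3 (adjusted p = 0.0386). With all libraries it passed by edgeR (0.0269 and 0.0361 after TMM and RLE scaling), DESeq2 (0.0242) and limma-voom (0.00961). Of the 2 brakes of fibrinolysis, THBD, the gene of thrombomodulin, fell with TGFβ1 from 2436 ± 113 to 1703 ± 129 normalized counts in the wt-GR line (log2 −0.52) and from 2487 ± 11.6 to 1442 ± 79.7 in the S134A-GR line (−0.79). It was lower in the S134A-GR line under TGFβ1 (−0.24), the single call of the list between the lines. The other gene of the list had group means of 2.19 to 3.33, near the floor, and was not called. The median log2 value of these 2 genes was −0.57 and −0.19 with TGFβ1 and −0.11 and 0.27 between the lines.

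Further serpins that inhibit plasminogen activators made a list of 4 genes, of which 1 fell with TGFβ1 in the wt-GR line and none was called in the S134A-GR line (median −0.12 and −0.16). That gene was SERPINI1, the neuroserpin gene (−0.26, limma with Benjamini-Hochberg adjusted p = 0.0380), a call lost without 6 of the 12 libraries. SERPINA5, which encodes the protein C inhibitor, had 943, 1160.4 and 1145 normalized counts in the wt-GR line under vehicle and 283, 388 and 319.8 in the S134A-GR line. Its wt-GR libraries were all above its S134A-GR libraries, also under TGFβ1 (1166 ± 56.1 and 287 ± 43.4). SERPINA5 was thus lower in the S134A-GR line (log2 −1.72 under vehicle and −2.03 under TGFβ1). With SERPINI1 under vehicle (−0.28), 2 genes were lower under vehicle and 1 under TGFβ1, and none was higher (median −0.56 and −0.45). Another gene, also of clade B, did not pass by limma under TGFβ1 with all libraries (−0.10, Benjamini-Hochberg adjusted p = 0.0568). It passed with all libraries by edgeR (0.0406 and 0.0480 after TMM and RLE scaling), DESeq2 (0.0439) and limma-voom (0.0350). By limma it passed without wt-GR vehicle library 1 or 3 and without S134A-GR TGFβ1 library 2 (−0.13).

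Clade B, the serpin clade of PAI-2, was listed with 12 further genes, of which 9 had values and 7 were tested. With TGFβ1, 3 fell in the wt-GR line and 2 in the S134A-GR line, and none rose (median −0.04 and −0.02). When wt-GR vehicle library 3 was removed, 1 gene with group means of 1.27 to 7.07 rose in the wt-GR line (2.95, limma with Benjamini-Hochberg adjusted p = 0.0256). SERPINB9, an inhibitor of granzyme B, fell from 747 ± 72.7 to 463 ± 13.5 normalized counts in the wt-GR line (log2 −0.69) and from 368 ± 25.6 to 239.9 ± 23.6 in the S134A-GR line (−0.62). SERPINB1, an inhibitor of neutrophil proteases, fell in both lines (log2 −0.43 and −0.40), and SERPINB7 fell in the wt-GR line (−0.27, limma with Benjamini-Hochberg adjusted p = 0.0376), a call lost without 7 libraries. Between the lines SERPINB9 was lower in the S134A-GR line (−1.02 under vehicle and −0.95 under TGFβ1), as was SERPINB1 (−0.63 and −0.59). SERPINB7 (0.85 and 0.95) and SERPINB8 (0.16 and 0.25) were higher, so that 2 were higher and 2 lower under each treatment (median −0.05 and −0.54). SERPINB11, SERPINB12 and SERPINB13 were not analysed here.

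Genes with the Ly6/uPAR domain, the fold that uPAR itself is built from, were listed with 7 genes, of which 6 were tested. CD59, a complement inhibitor, was the single call with TGFβ1 in each line, and it rose in the wt-GR line (0.19) and the S134A-GR line (0.12, limma with Benjamini-Hochberg adjusted p = 0.0494, lost without 8 libraries). When wt-GR vehicle library 3 was removed, LYPD3 (0.54, adjusted p = 0.0264) and LYPD5 (2.19, adjusted p = 0.0184) also rose in the wt-GR line, so that 3 genes rose there by limma with Benjamini-Hochberg. All libraries gave 0.37 and 1.40 (adjusted p = 0.138 and 0.173, limma with Benjamini-Hochberg). The same removal let LYPD3 pass in the S134A-GR line (0.43, adjusted p = 0.0491), where all libraries gave an adjusted p of 0.0895 by limma with Benjamini-Hochberg and 0.0368 by DESeq2. The median of the list was 0.18 and 0.24. Under vehicle 3 genes were higher and 2 lower in the S134A-GR line, and under TGFβ1 2 were higher and 1 lower (median 0.19 and 0.25). CD59 was higher by 0.18 and 0.11, and its call under TGFβ1 was lost without 3 libraries. LYPD3 was higher by 0.46 and 0.52, calls lost without 4 and 2 libraries, and LYPD6 was lower (−0.29 and −0.31). LYPD5, with group means of 1.40 to 6.23 normalized counts, was called higher under vehicle, a call lost without 4 libraries, by edgeR (Benjamini-Hochberg adjusted p = 0.112) and by DESeq2 (0.128). LYPD6B was lower under vehicle, at 3.56 ± 2.24 normalized counts against 23.5 ± 3.86 in the wt-GR line. Under TGFβ1 it did not pass by limma with all libraries (log2 −1.23, Benjamini-Hochberg adjusted p = 0.0636) and passed without wt-GR TGFβ1 library 3 (−1.80) or S134A-GR TGFβ1 library 2 (−1.54). With all libraries it passed by limma with a pseudocount of 16 (0.0362), by edgeR (0.0306 and 0.0310 after TMM and RLE scaling) and by DESeq2 (0.0336). TEX101 was not analysed here. Plasminogen and plasmin inhibitors were a list of 4 genes, PLG, A2M, SERPINF2 and SERPING1. PLG and A2M were not analysed here, and SERPINF2 was at 0 in 10 of 12 libraries, with 16.2 normalized counts as its highest value. SERPING1 read 9.78, 10.6 and 6.32 normalized counts in the wt-GR line under vehicle and 0 in the S134A-GR line under vehicle. It was called lower under vehicle and, in the wt-GR line, with TGFβ1, where the call was lost without 5 libraries, and no other call was made in this list with all libraries. Removal of S134A-GR TGFβ1 library 1 made it lower under TGFβ1 as well (log2 −1.53, limma with Benjamini-Hochberg adjusted p = 0.0409).

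Further calls of limma with all libraries were lost by other fits, with Benjamini-Hochberg adjusted p given here. With TGFβ1 in the wt-GR line these were SERPINB7 by edgeR (0.0510 and 0.0520) and limma-voom (0.0957), SERPING1 by edgeR (0.0917 and 0.0921), and CTSB and SERPINI1 with a replicate block (0.0689 and 0.0616). DESeq2 gave SERPING1 no adjusted p there. CD59 in the S134A-GR line was lost by edgeR after TMM scaling (0.0569), with a pseudocount of 16 (0.0534) and with the block (0.0560). Between the lines the calls of ANXA2 under vehicle were lost with a pseudocount of 16 (0.0883) and the block (0.0721), LYPD3 under vehicle by limma-voom (0.0696), and CD59 under TGFβ1 by edgeR after TMM scaling (0.0510).

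Genes with the most similar values over the 12 libraries were found for each of the 5 by Pearson's r of log2 values among 13280 genes. These are descriptions, since the 12 libraries share 4 groups. Nearest to PLAU were OLFM2 (r = 0.988), COL1A1 (0.986) and MFSD12 (0.985). PLAT was nearest to CCNDBP1 (0.987), ACSS2 (0.985) and PCYT2 (0.983). PLAUR was nearest to S100A16 (0.984), SEMA4B (0.982) and ASL (0.982). The inhibitor SERPINE2 was nearest to TAF7 (0.961), PTPRN2 (0.948) and MRFAP1 (0.944), and SERPINB2 to SNHG20 (0.951), PRR14 (0.943) and TMEM143 (0.943).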

How the data were processed

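RNA sequencing libraries of 75-base read pairs from 12 samples were used, 3 in each of 4 groups. The authors checked reads with FastQC, trimmed with Trimmomatic, aligned to hg38 with HISAT2, counted with featureCounts and divided by DESeq2 size factors. The deposited signal is therefore a normalized count for each of 19907 symbols. Annotation, strand setting and whether pairs were counted as fragments are not stated. Values were whole multiples of a step per library (100% within 0.01), which gave factors of 0.614 to 1.40 and the recovered reads.

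Genes with at least 10 recovered reads in all were tested, 18579, by limma 3.58.1 (R 4.3.3) on log2 of the value plus 1, with 4 group means, a variance trend and Benjamini-Hochberg adjustment, called at FDR under 0.05. Alternatives were pseudocounts of 0.5 and 16, other filters, edgeR 4.0.16 and DESeq2 1.42.0 on recovered reads, limma-voom, a replicate block, only the groups compared, FDR under 0.01 and each library left out. Exons came from GENCODE 44 and promoters from RefSeq. The lists were plasminogen and plasmin inhibitors, other serpins that inhibit activators, other activating proteases, plasminogen binding, cofactors and uptake receptors, brakes of fibrinolysis, clade B serpins, and Ly6/uPAR domain genes. All 5 genes were named, with up to 4 called genes per list and comparison by size of change, PLG, VTN, SERPINF2 and LRP1, and the 3 most similar genes with a mean of at least 50, beside label checks and markers. C10orf55, IGF2R and S100A10 were named after their values were seen. The members and lists were chosen with earlier results of these data known.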

Additional observations from a re-analysis of the deposited data

Results flagged for a closer look

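The response to TGFβ1 differed between the cell lines by limma's test of the interaction for PLAU and PMEPA1 among the 5 genes, the listed genes, the label checks and the markers. Genes chosen for values similar to 1 of the 5 were left out, since the choice used the same libraries. PLAU, the gene of uPA, rose in both lines, and S134A-GR minus wt-GR was −0.54 on the log2 scale. PMEPA1, a TGFβ target used to check the labels, had group means of 4723 ± 325 and 35257 ± 1267 normalized counts under vehicle and TGFβ1 in the wt-GR line and 4367 ± 162 and 19868 ± 1132 in the S134A-GR line (SD, n = 3), a difference of −0.72. Groups of 3 libraries were not tested for a single library far from the others.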

How the results depend on the processing

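The number of the 5 genes called in each comparison stayed within 1.5 times its value under all alternatives. Of the log2 fold changes, 545 kept their direction and side of the threshold, 7 newly passed, 15 no longer passed and 3 turned sign. Those 3 were the PLAUR difference of responses, −0.03 without wt-GR vehicle library 3, −0.02 without wt-GR TGFβ1 library 2 and −0.01 without S134A-GR TGFβ1 library 2, against 0.01 (range without each library −0.0280 to 0.0566). The cause was not tested. The PLAU difference of responses ranged from −0.57 to −0.51 (adjusted p from 2.33e-15 to 0.00698 over edgeR, DESeq2 and limma settings). PLAT in wt-GR cells (adjusted p 0.0115 to 0.188 over all alternatives) also passed under edgeR's filterByExpr (0.0461), DESeq2's Wald test (0.0322) and a replicate block (0.0369). SERPINB2 under TGFβ1 (0.0166 to 0.159) was lost with a pseudocount of 16 (0.0503), no filter (0.0555), limma-voom (0.0536), the block (0.0618) and only the groups compared (0.0518), and at FDR 0.01 both its calls were lost. Over all genes, FDR 0.01 called 2324 and 2029 responses to TGFβ1 in the wt-GR and S134A-GR lines in place of 3910 and 3475, and 20 differences of responses in place of 77. DESeq2 called 211 differences, and leaving out a library gave 22 (wt-GR TGFβ1 library 1) to 166 (wt-GR vehicle library 3). Libraries with the same number were no more alike than others (mean r of deviations 0.000251 over 18 pairs). Depth limits SERPINF2, VTN, HPN, KLKB1 and SERPING1, which lay near the floor of 3 reads.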
